A study of Mus musculus with 5 samples.

Results

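A set of 10 enzymes of glycolysis was followed in Olfr151-transcribing neurons at rest and after odorant exposure. The members were the genes whose Ensembl identifiers map to Hk1, Hk2, Gpi1, Pfkp, Pfkl, Aldoa, Pgk1, Eno1, Pkm and Ldha, which makes 10 of the 55411 genes counted. Aldoa is split over 2 rows of the annotation, so the 10 symbols took 11 rows, and the row of the enzyme's main locus was used unless stated otherwise. All mice were 7-week-old males homozygous for Olfr151-IRES-tau-GFP (Olfr151tm26Mom), a knock-in allele on a C57BL/6J background in which a neuron that transcribes the odorant receptor gene Olfr151 (M71) also makes GFP. The exposed mice had breathed acetophenone, an Olfr151 agonist, at 5% in DMSO for 5 h, and the control mice DMSO alone. Living GFP-positive neurons were sorted, and those of 4 mice were combined into 1 pool of 200 cells, although another field of the labels gives a larger number of cells. Control pools 1, 2 and 3 and exposed pools 1 and 3 were compared, and exposed pool 2 was not analysed here. Their libraries held between 42780403 and 49527380 counts. Pools are separate groups of animals, and no value can be assigned to a single mouse.

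Glycolysis converts glucose to pyruvate in the cytosol with a net gain of ATP and NADH. Hexokinase and phosphofructokinase spend ATP in the upper part of the pathway, aldolase splits the hexose, and phosphoglycerate kinase and pyruvate kinase regain ATP in the lower part. Lactate dehydrogenase interconverts pyruvate and lactate and thereby recycles NADH to NAD+. Several steps are served by paralogues that differ in tissue distribution and regulation. In olfactory sensory neurons (OSNs), glucose metabolism is one of the sources of the ATP used by the odorant-detecting cilia.

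The labels were first checked against the genes that define the sorted population. The reporter was at 320, 283 and 376 CPM (counts of a gene relative to the library total, scaled by the TMM method) in control pools 1, 2 and 3 and at 244 and 311 CPM in exposed pools 1 and 3. Olfr151 was at 3244, 3071 and 3633 CPM in the control pools and at 2446 and 2351 CPM in the exposed pools. Both were thus abundant in each library. Of the 7 markers of mature OSNs, among them Omp and the ciliary adenylyl cyclase Adcy3, none was near 0, and together they made up 55062, 58231 and 55597 CPM in the control pools and 47278 and 48159 CPM in the exposed pools. The channel subunit gene Cnga2 and the receptor chaperone gene Rtp1, 2 of these 7, were called downregulated, where 1.85% of all tested genes were. Omp was lower in both exposed pools, at 13668 and 12511 CPM against 15133 to 16917 CPM in the control pools. Stoml3, the most abundant over the 5 libraries together, overlapped between conditions, at 16515 to 17690 CPM in the control pools and 19672 and 17064 CPM in the exposed pools. In pooled material, fewer cells of a type and less RNA per cell cannot be told apart.

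At rest, the enzymes spanned a wide range of abundance. Levels were compared between genes as TPM (counts divided by exon length, relative to their sum in the library), within libraries only, since the median tested gene had a TPM that was lower in the exposed than in the control pools by a log2 difference of -0.19. Aldoa, the muscle type of aldolase, which most other tissues also use, was the most abundant member at 1580 TPM ± 103 (SD, n = 3 control pools), and Pkm, which encodes the M-type pyruvate kinases, followed at 800.0 TPM ± 65.7. Eno1 (α-enolase) stood at 176 TPM ± 46.1 and Gpi1, which isomerizes glucose 6-phosphate to fructose 6-phosphate, at 154 TPM ± 22.2. Their ranges overlapped in the control pools, although Eno1 was above Gpi1 in 4 of 5 libraries. The hexokinase gene Hk1 at 83.1 TPM ± 19.6, the platelet-type phosphofructokinase gene Pfkp at 68.3 TPM ± 10.4, the liver-type phosphofructokinase gene Pfkl at 56.1 TPM ± 17.4 and Ldha, which encodes the A subunit of lactate dehydrogenase, at 50.9 TPM ± 5.76 formed a group in which each gene overlapped with the next. Pgk1 (phosphoglycerate kinase) was much lower at 4.13 TPM ± 0.740, and Hk2, the hexokinase typical of insulin-sensitive and proliferating tissues, was near the limit of detection at 0.116 TPM ± 0.0479. Hk2 had 11, 5 and 12 counts in the control pools. The neighbouring ranks that did not overlap in the control pools were Aldoa above Pkm, Pkm above Eno1, Gpi1 above Hk1, Ldha above Pgk1 and Pgk1 above Hk2, and each of these 5 orders held in 5 of 5 libraries. With the length of the principal transcript in place of the exon length, Pfkp came before Hk1 in 5 of 5 libraries, and these 5 orders held in 5 of 5 libraries as well. The plot of member levels shows the corresponding CPM values.

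**Figure D1:**
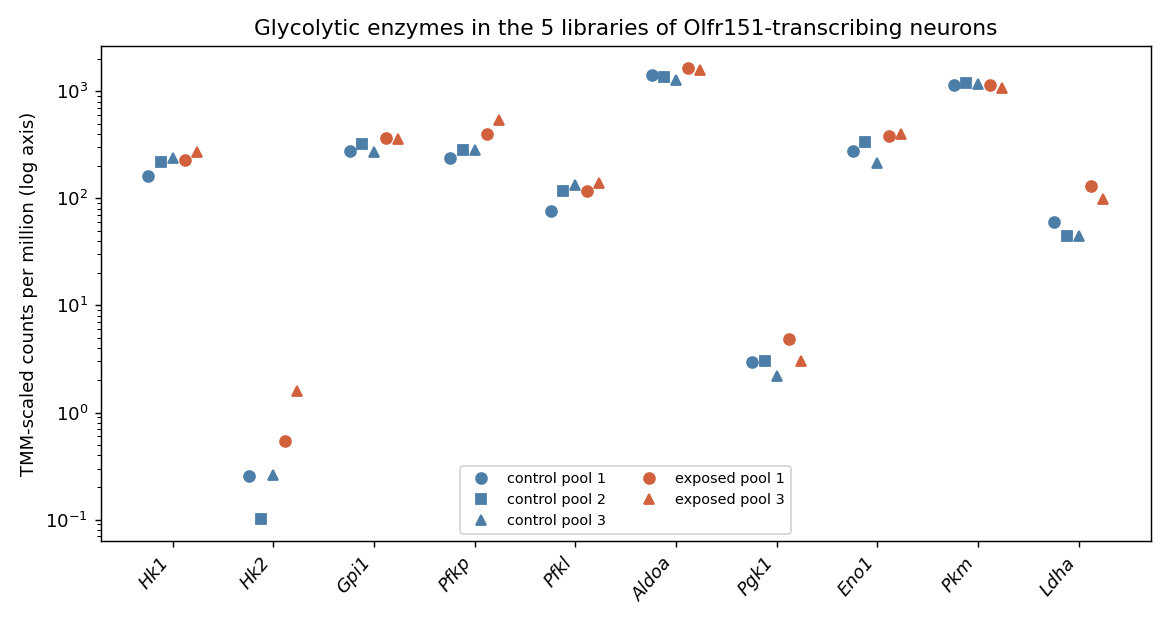
Level of each of the 10 enzymes (TMM-scaled CPM, log axis, not divided by length) in control pools 1 to 3 (blue) and exposed pools 1 and 3 (orange), 1 point per library. Exposed points lie above all control points for Gpi1, Pfkp, Aldoa, Eno1 and Ldha among the tested members and for the low Hk2 and Pgk1, whereas those of Hk1, Pfkl and Pkm overlap with the control points.

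Some enzymes share sequence with other genes, which bears on how their levels can be read. Reads of 50 bases that map to several places were not counted, and many glycolytic genes have processed copies elsewhere in the genome. In the principal transcript of Pgk1, 68.0% of all windows of 50 bases also occur in transcripts of other genes, nearly all of them in the retrogene Pgk1-rs7. The share was 72.2% for Eno1, most of it shared with Eno1b, and 34.4% for Pkm. It was 25.3% for Gpi1, 17.1% for Ldha, 17.1% for Pfkp and 13.9% for Aldoa, and under 0.1% for Hk1, Hk2 and Pfkl. Eno1b itself received 2330, 1763 and 2551 counts in the control pools and 2969 and 2607 counts in the exposed pools, against 9840 to 16618 counts of Eno1. The Pfkp windows are shared with Pitrm1, a gene on the opposite strand whose exons overlap 748 exon bases of Pfkp, and counting did not use the strand. The same applies to enzymes outside the 10, since 82.5% of the Gapdh and 41.5% of the Pgam1 windows occur elsewhere, and their levels of 57.1 TPM ± 2.49 (Gapdh) and 39.5 TPM ± 3.07 (Pgam1) at rest are uncertain in the same way. Whether and how far uncounted reads lowered each level was not tested.

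After 5 h of acetophenone, 2 of the 10 enzymes, Pfkp and Ldha, were upregulated and none was downregulated. Of the 10 genes, 8 had enough counts to be tested (at least 140 in each library of a condition), while Hk2 and Pgk1 had not. Of all 10054 genes tested, 344 (3.42%) were called upregulated and 186 (1.85%) downregulated, with a call requiring an adjusted p-value under 0.1 and a log2 fold change beyond 0.5 in either direction. The log2 fold change was positive for 7 and negative for 1 of the 8 tested members, with a median of 0.30 against -0.03 for all tested genes. Both exposed pools were above all control pools for 5 of the 8, against 20.3% of all tested genes, and both were below for 0 of the 8, against 19.6% of all tested genes. DESeq2 with apeglm called the same 2 members, in a fit that called 6.67% of the tested genes upregulated and 7.11% downregulated. In edgeR both calls were lost with scaling on the ERCC spike-ins, an adjusted p under 0.05, glmTreat with the fold threshold, filterByExpr or pool number as a block.

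**Figure D2:**
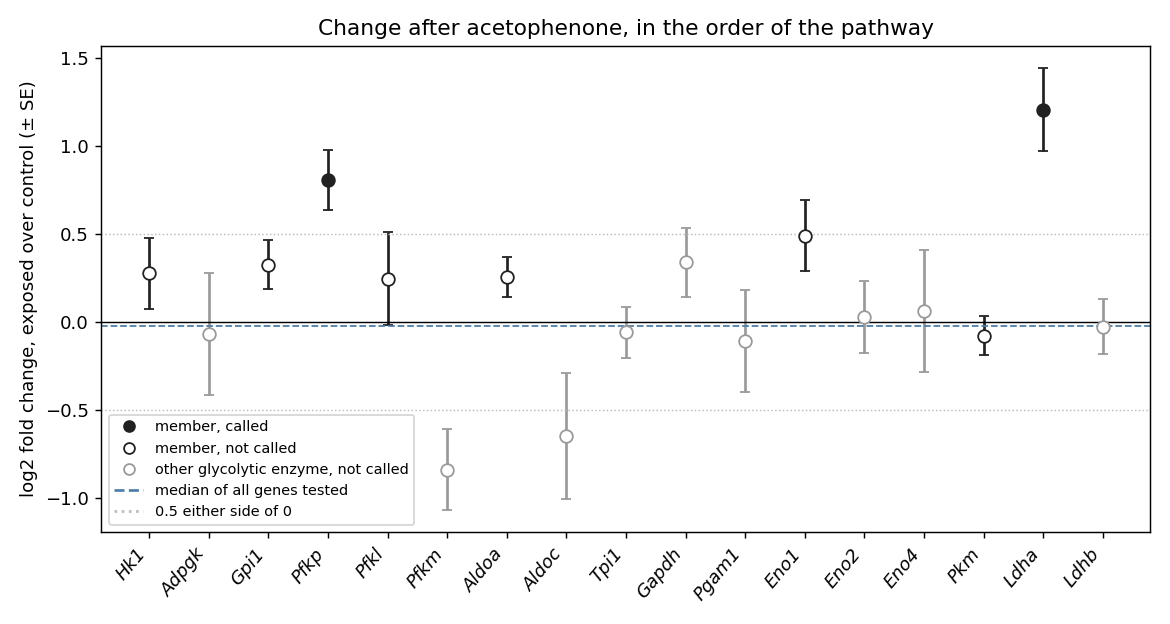
Log2 fold change (exposed over control, ± SE from edgeR) of the 17 glycolytic enzymes tested, from hexokinase on the left to lactate dehydrogenase on the right. Filled symbols mark calls, and only Ldha and Pfkp are filled. Pfkm and Aldoc are the enzymes with the most negative values, and the dashed line is the median of all tested genes.

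At the entry of the pathway, none of the 3 enzymes Hk1, Hk2 and Gpi1 was called. Hk1 was at 162, 219 and 239 CPM in the control pools and at 229 and 271 CPM in the exposed pools. The conditions overlapped, and the log2 fold change was 0.28 ± 0.20 (SE; adjusted p = 0.508, edgeR). Hk1 made up 98.4% ± 1.84 of the TPM of the hexokinase genes in the control pools (SD, n = 3) and 96.3% ± 4.04 in the exposed pools (n = 2). Hk2 had 23 and 66 counts in the exposed pools, above the 5 to 12 counts of the control pools. With a less strict filter its log2 fold change was 2.38 ± 1.32 with an adjusted p of 0.492 (edgeR), and it was not called. Gpi1 was at 278, 322 and 273 CPM in the control pools and at 368 and 360 CPM in the exposed pools. Both exposed pools were higher, but the log2 fold change of 0.32 ± 0.14 was not called (adjusted p = 0.270, edgeR).

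Phosphofructokinase commits fructose 6-phosphate to glycolysis and is the main point of control of the pathway. Pfkp was at 237, 282 and 285 CPM in control pools 1, 2 and 3 and at 402 and 535 CPM in exposed pools 1 and 3. The conditions were fully separated, and the spread was larger between the exposed pools than among the control pools. The log2 fold change was 0.81 ± 0.17 (adjusted p = 0.0677, edgeR), a 1.75-fold higher mean CPM. The call was lost when control pool 1 (adjusted p = 0.105), control pool 2 (0.156), exposed pool 1 (0.161) or exposed pool 3 (0.267) was left out of the edgeR fit, while the log2 fold change stayed between 0.56 and 0.99. Pfkl was at 76.0, 116 and 135 CPM in the control pools and at 118 and 140 CPM in the exposed pools. These conditions overlapped, with a log2 fold change of 0.25 ± 0.26 (adjusted p = 0.662, edgeR). The muscle type, Pfkm, is not one of the 10 members but serves the same step. It was at 112, 174 and 159 CPM in the control pools and at 79.9 and 85.7 CPM in the exposed pools, all below the control pools, and was not called, with a log2 fold change of -0.84 ± 0.23 (adjusted p = 0.122, edgeR). Pfkm passed the threshold with DESeq2 (adjusted p = 0.0173) and without control pool 1 in edgeR (adjusted p = 0.0462).

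The make-up of phosphofructokinase transcripts was then taken per library. Shares were computed with the exon length of the count files, which joins all annotated exons and is 13401 bases for Pfkp and 3340 bases for Pfkm. On that length, Pfkm held 53.6%, 57.5% and 53.4% of the summed TPM of the 3 paralogues in the control pools and 33.4% and 29.6% in the exposed pools. Pfkp made up 28.2%, 23.2% and 23.9% in the control pools and 41.9% and 46.1% in the exposed pools. Pfkl held 18.2% to 22.7% in the control pools and 24.3% to 24.7% in the exposed pools. Which paralogue leads in the control pools depends on the length. With the length of the principal transcript (4145 bases for Pfkp, 2879 for Pfkm), Pfkp held 49.1%, 42.6% and 43.0% in the control pools and 63.8% on average in the exposed pools, and Pfkm 33.4%, 37.8% and 34.5% and then 17.8% and 15.1%. On that length Pfkl held 17.5%, 19.6% and 22.6% in the control pools and 20.2% and 19.2% in the exposed pools, so that the conditions overlapped. On both lengths the share of Pfkp was higher and that of Pfkm lower in each exposed pool than in any control pool.

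**Figure D3:**
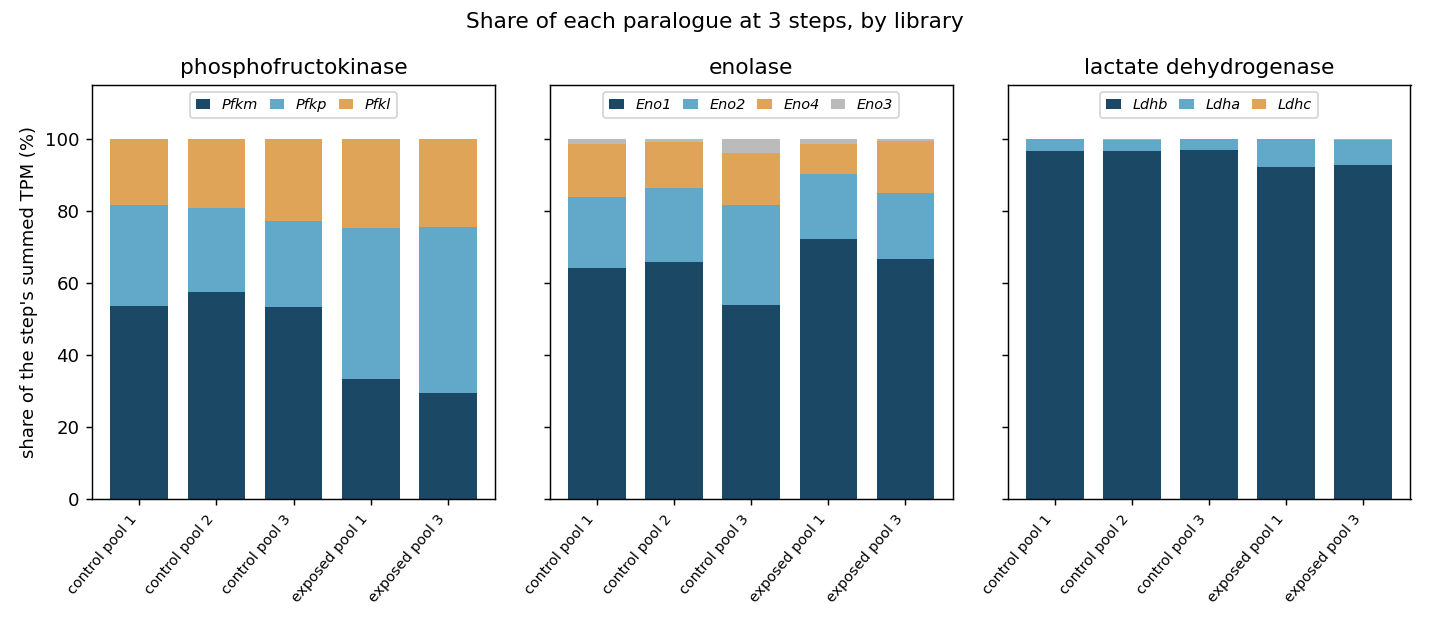
Share of each paralogue in the summed TPM of phosphofructokinase, enolase and lactate dehydrogenase (% on the vertical axis), 1 bar per library, with the exon length of the count files. On this length Pfkp has the largest share in both exposed pools and Pfkm in the 3 control pools, an order that turns in the control pools with the principal transcript's length, while Ldhb makes up more than 92% of lactate dehydrogenase in every library and the share of Ldha is higher in both exposed pools.

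Aldolase transcripts came almost wholly from Aldoa, which made up 98.7% ± 0.237 of the TPM of its step in the control pools and 99.3% ± 0.00276 in the exposed pools. Aldoa was at 1411, 1373 and 1270 CPM in the control pools and at 1635 and 1589 CPM in the exposed pools. The pools did not overlap, but the log2 fold change of 0.25 ± 0.11 was not called (adjusted p = 0.276, edgeR). The second row of Aldoa had 102 to 311 counts per library, and its values overlapped between conditions. Aldoc, the brain type of aldolase, was low, with 15.6 to 24.2 CPM in the control pools and 12.2 to 12.4 CPM in the exposed pools, with a log2 fold change of -0.65 ± 0.36 (adjusted p = 0.372, edgeR).

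In the lower part of the pathway, no enzyme was called. Pgk1 had 128, 147 and 100 counts in the control pools and 208 and 126 counts in the exposed pools. The counts of both conditions overlapped, although the scaled levels of 4.90 and 3.04 CPM in the exposed pools were just above the 2.18 to 3.01 CPM of the control pools. In a fit with a less strict filter the log2 fold change was 0.56 ± 0.67 (adjusted p = 0.815, edgeR). Eno1 was at 277, 340 and 215 CPM in the control pools and at 381 and 396 CPM in the exposed pools. The exposed pools were higher throughout, whereas the control pools were widely spread, and the log2 fold change of 0.49 ± 0.20 was not called (adjusted p = 0.254, edgeR). The neuronal enolase gene Eno2 was at 74.1 to 97.5 CPM in the control pools and at 84.2 and 95.5 CPM in the exposed pools, with a log2 fold change of 0.03 ± 0.21 (adjusted p = 0.964, edgeR). Eno1 accounted for 61.3% ± 6.50 of enolase TPM in the control pools and for 69.4% ± 3.83 in the exposed pools. Pkm was the only tested member with a negative log2 fold change, -0.08 ± 0.11 (adjusted p = 0.740, edgeR). It was at 1149, 1202 and 1171 CPM in the control pools and at 1150 and 1072 CPM in the exposed pools, so that the conditions overlapped.

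Lactate dehydrogenase is a tetramer of A and B subunits. Ldha was at 59.6, 45.0 and 44.7 CPM in control pools 1, 2 and 3 and at 131 and 97.9 CPM in exposed pools 1 and 3. Both exposed pools were well above all control pools, with a log2 fold change of 1.20 ± 0.24 (adjusted p = 0.0510, edgeR) and a 2.30-fold higher mean CPM. The call was lost without control pool 2 (adjusted p = 0.155), exposed pool 1 (0.361) or exposed pool 3 (0.129) in the edgeR fit, while the log2 fold change stayed between 0.97 and 1.37. Ldhb, which encodes the B subunit, was far more abundant per length, at 1531 TPM ± 98.8 in the control pools, and was not called. It was at 806, 662 and 659 CPM in the control pools and at 759 and 631 CPM in the exposed pools, with a log2 fold change of -0.03 ± 0.15 (adjusted p = 0.947, edgeR) whose sign turned when control pool 1 (0.08) or exposed pool 3 (0.07) was left out. The share of Ldha in the TPM of lactate dehydrogenase was 3.39%, 3.11% and 3.12% in the control pools and 7.58% and 6.83% in the exposed pools. With the length of the principal transcript, its share of Ldha and Ldhb together was 5.17%, 4.78% and 4.77% in the control pools. In the exposed pools it was then 11.3% and 10.3%.

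Balances between paralogues were then tested as the log2 ratio of their TPM in each library, which does not depend on the scaling between libraries. An exact permutation test of 3 against 2 pools cannot give a two-sided p-value below 0.1, so that none of the 6 ratios could pass 0.05. For Ldha over Ldhb, the log2 ratio was -4.92 ± 0.07 in the control pools (SD, n = 3) and -3.69 ± 0.11 in the exposed pools (n = 2), a difference of 1.23 (exact permutation p = 0.1, adjusted p = 0.15 over the 6 pairs). For Pfkm over Pfkl, it was 1.46 ± 0.19 and 0.36 ± 0.11, a difference of -1.10 with the same exact p-values. For Aldoa over Aldoc, the ratio was 6.32 ± 0.25 and 7.20 ± 0.01, a difference of 0.88, and for Hk1 over Hk2 it was 9.55 ± 0.90 and 7.55 ± 0.93, a difference of -2.00, each at the smallest p-value the exact test allows. The Hk1 over Hk2 ratio rests on 5 to 12 counts of Hk2 in the control pools, and its difference was -1.35 without exposed pool 3 and -2.66 without exposed pool 1. Pfkp over Pfkl differed by 0.52 (exact permutation p = 0.2, adjusted p = 0.24) and Eno1 over Eno2 by 0.48 (exact permutation p = 0.3, adjusted p = 0.3). The exposed pools lay outside the range of the control pools in all 6 pairs. For single genes, both exposed pools were above all control pools in 20.3% and below them in 19.6% of those tested. Pfkl is part of both phosphofructokinase pairs, so the pairs are not independent.

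The sequences upstream of an annotated start of the called members are shown with letters that are known as binding motifs of transcription factors. RefSeq entries on GRCm38.p6 were found for 10 of 10 members, and the 250 bases before the start nearest to the 5′ end of the gene were searched on both strands. Capitals mark ACGTG, the core of the hypoxia response element, which an E-box with the letters CACGTG also contains. They further mark TGACG, with which the cyclic AMP response element TGACGTCA begins, and the GC box, whose letters are GGGCGG. For Ldha the window was chr7:46845554-46845803 on the + strand, and for Pfkp chr13:6648772-6649021 on the - strand. The Ldha start used here lies 4329 bases inside the gene as the count files delimit it, and that of Pfkp 6 bases from the gene's end in those files.
Ldha: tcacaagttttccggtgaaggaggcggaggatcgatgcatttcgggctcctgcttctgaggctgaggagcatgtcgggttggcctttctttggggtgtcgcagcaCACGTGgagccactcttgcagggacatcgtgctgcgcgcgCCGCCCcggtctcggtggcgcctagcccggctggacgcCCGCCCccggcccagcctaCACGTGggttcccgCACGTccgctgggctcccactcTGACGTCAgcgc
Pfkp: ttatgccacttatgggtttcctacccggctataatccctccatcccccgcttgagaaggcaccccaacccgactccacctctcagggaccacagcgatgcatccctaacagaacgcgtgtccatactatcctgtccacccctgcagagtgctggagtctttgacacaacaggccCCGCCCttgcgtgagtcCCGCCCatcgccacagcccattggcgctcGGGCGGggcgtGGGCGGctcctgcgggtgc
In the Ldha window, CACGTG occurred 2 times, each holding ACGTG on both strands, beside 1 further ACGTG on the reverse strand, 1 complete TGACGTCA and 2 GC boxes. In the Pfkp window, ACGTG and TGACG did not occur and GGGCGG occurred 4 times. Across all 32851 promoter entries of this length, 16.6% held ACGTG, 6.02% CACGTG, 17.8% TGACG, 1.55% TGACGTCA and 32.7% GGGCGG. Among the 10 members, ACGTG was found in 3 (Hk2, Pgk1 and Ldha), TGACGTCA in 1 (Ldha) and GGGCGG in 6. The AP-1 motif TGACTCA was found in 0 of the 10, against 4.46% of all entries. CACGTG also occurred in the windows of Pfkm, which was lower in both exposed pools, and of Gpd1l, which was called upregulated. Pfkm has 4 annotated starts, of which only the start nearest to the 5′ end was used. Which start these neurons use was not tested. The windows of Tkt and Dld, which were called upregulated as well, held neither CACGTG nor ACGTG. A match describes the letters of the window and was not linked to binding in these cells.

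Of the 19 glycolytic genes outside the 10, 9 were tested. None was called in either direction with edgeR, where 3.42% and 1.85% of all tested genes were called upregulated and downregulated, and DESeq2 called Pfkm alone, as downregulated. With these shares, a count of 0 among 9 genes does not set them apart. An unadjusted p under 0.05 (edgeR) was found for 1 of the 9 (Pfkm) and for 1924 of all 10054 genes. Their median log2 fold change was -0.06. Most of the 10 that could not be tested are types of other tissues, such as Pklr and the germ cell genes Pgk2 and Gapdhs. Triosephosphate isomerase, Tpi1, was at 356 to 427 CPM in the control pools and at 347 and 388 CPM in the exposed pools, with a log2 fold change of -0.06 ± 0.15 (adjusted p = 0.860, edgeR) that turned to 0.03 without control pool 1. Gapdh was at 65.5 to 77.3 CPM in the control pools and at 92.6 and 83.2 CPM in the exposed pools, with a log2 fold change of 0.34 ± 0.20 (adjusted p = 0.397, edgeR).

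Around the pathway, a few genes of glucose uptake, the glycerol phosphate shuttle, the pentose phosphate pathway and pyruvate entry into mitochondria were called upregulated. In 9 lists of glycolytic and neighbouring genes with 93 genes in all, 68 were tested, and edgeR called 5 upregulated and none downregulated, which compares with 3.42% and 1.85% of all tested genes. An unadjusted p under 0.05 (edgeR) was found for 17 of the 68, against 1924 of all 10054 genes. DESeq2 called 7 upregulated and 2 downregulated, in a fit that called 6.67% and 7.11% of all tested genes. Slc2a4, which encodes the insulin-responsive glucose transporter GLUT4, had 0, 50 and 83 counts in the control pools and 3990 and 3260 counts in the exposed pools. Both exposed pools were thus far above each control pool, with a log2 fold change of 6.50 ± 1.26 (adjusted p = 0.0577, edgeR). Slc2a4 met the count minimum for testing in the exposed pools alone, so it was tested because it was high there. In edgeR its call was lost with filterByExpr (adjusted p = 0.140), no filter beyond 1 count (0.369) and pool number as a block (0.314). It was kept with the other scalings, glmTreat, no robust estimation and the lower count minimum. DESeq2 with apeglm also called it, with a smaller log2 fold change of 4.88. The widely expressed glucose transporter gene Slc2a1 was at 145, 171 and 145 CPM in the control pools and at 200.0 and 171 CPM in the exposed pools, with a log2 fold change of 0.27 ± 0.16 (adjusted p = 0.420, edgeR).

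Both genes of cytosolic glycerol 3-phosphate dehydrogenase, the enzyme that draws dihydroxyacetone phosphate from glycolysis and oxidizes NADH, were upregulated. Gpd1l was at 108, 190 and 164 CPM in the control pools and at 457 and 400.3 CPM in the exposed pools, a log2 fold change of 1.48 ± 0.24 (adjusted p = 0.0293, edgeR). Gpd1 had 2, 0 and 0 counts in the control pools and 630 and 232 counts in the exposed pools. Set against a floor of 3 counts in each control library, its share of the counts was on average at least 151.9-fold higher in the exposed pools, at least 220.8-fold in exposed pool 1 and at least 83.0-fold in exposed pool 3 (adjusted p = 0.0132, edgeR). Gpd1 met the count minimum for testing in the exposed pools alone, so it was tested because it was high there. In edgeR its call was kept with filterByExpr (adjusted p = 0.0832) and no filter beyond 1 count (0.0196). It was lost with pool number as a block (0.166). The malate dehydrogenase gene Mdh1, the most abundant of the 10 shuttle genes per length, was at 1233 to 1523 CPM in the control pools and at 1846 and 1737 CPM in the exposed pools, and its log2 fold change of 0.42 ± 0.13 was not called (adjusted p = 0.165, edgeR). Of the shuttle genes, 9 were tested and these 2 were called, where 3.42% of all tested genes were called upregulated and 1.85% downregulated.

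In the pentose phosphate pathway, which branches off at glucose 6-phosphate, 1 of 6 tested genes was called. Of all tested genes, 3.42% were called upregulated and 1.85% downregulated. The transketolase gene Tkt was at 147, 141 and 168 CPM in the control pools and at 238 and 246 CPM in the exposed pools, a log2 fold change of 0.67 ± 0.15 (adjusted p = 0.0745, edgeR). Taldo1 (transaldolase), the most abundant gene of the list, had a log2 fold change of -0.58 ± 0.21 (adjusted p = 0.204, edgeR). Of 13 tested genes for the entry of pyruvate into mitochondria, 1 was called, against the same shares of all tested genes. Dld, the E3 subunit of the pyruvate dehydrogenase complex, was the called gene. It was at 162, 145 and 150 CPM in the control pools and at 259 and 214 CPM in the exposed pools, a log2 fold change of 0.63 ± 0.16 (adjusted p = 0.0960, edgeR). The E2 subunit gene Dlat was at 113 to 130 CPM and at 187 and 188 CPM, with a log2 fold change of 0.59 ± 0.15 (adjusted p = 0.109, edgeR), and DESeq2 called it upregulated. Leaving out exposed pool 1 ended each of the 5 calls of Slc2a4, Gpd1, Gpd1l, Tkt and Dld (adjusted p = 0.225 to 0.508, edgeR), with log2 fold changes of 6.36 for Slc2a4, 1.37 for Gpd1l, 0.69 for Tkt and 0.48 for Dld. Without exposed pool 3 the calls of Slc2a4 (0.170), Gpd1l (0.123), Tkt (0.248) and Dld (0.175) were lost, without control pool 2 those of Slc2a4 (0.184), Tkt (0.188) and Dld (0.215), without control pool 1 those of Tkt (0.107) and Dld (0.105), and without control pool 3 that of Dld (0.160), all as adjusted p. The log2 fold change of Slc2a4 was 7.39 without control pool 3 and kept its call (adjusted p = 0.0304, edgeR).

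**Figure D4:**
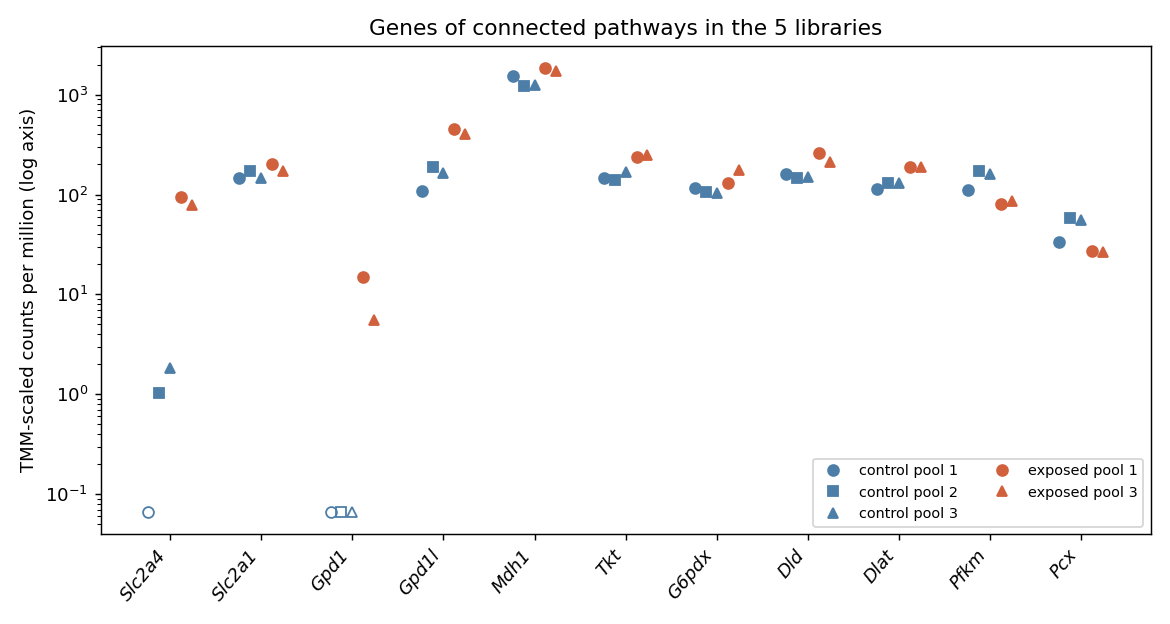
Level (TMM-scaled CPM, log axis) of 11 genes of glucose uptake and connected pathways in the 5 libraries, with colours and symbols as for the member levels. Hollow symbols are libraries with 3 counts or fewer, drawn at the mean CPM of 3 counts. Slc2a4 is at the floor in 1 and Gpd1 in 3 control pools, and Pfkm and Pcx lie lower in both exposed pools.

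The remaining lists held no calls in edgeR, where 3.42% of all tested genes were called upregulated and 1.85% downregulated. Of the 6 genes that set fructose 2,6-bisphosphate or 2,3-bisphosphoglycerate, 5 were tested. Pfkfb3, an inducible activator of phosphofructokinase through fructose 2,6-bisphosphate, was at 4.81, 1.45 and 2.42 CPM in the control pools and at 16.0 and 5.48 CPM in the exposed pools, with a log2 fold change of 1.89 ± 0.71 (adjusted p = 0.218, edgeR). With 207, 71 and 111 counts in the control pools and 679 and 227 in the exposed pools, Pfkfb3 met the count minimum in the exposed pools alone. It was thus tested because it was high there. Bpgm, the bisphosphoglycerate mutase of red blood cells, was the most abundant of the 6 genes. It was at 81.2, 76.3 and 90.6 CPM in control pools 1 to 3 and at 52.7 and 59.1 CPM in the exposed pools. Its log2 fold change was -0.57 ± 0.20 (adjusted p = 0.201, edgeR). In gluconeogenesis, 2 of 6 genes were tested. Pck2, the mitochondrial phosphoenolpyruvate carboxykinase, had a log2 fold change of -0.47 ± 0.17 (adjusted p = 0.201, edgeR) and G6pc3, a widely expressed glucose-6-phosphatase, of -0.06 ± 0.24. In glycogen metabolism, 7 of 9 genes were tested, of which Gbe1 (branching enzyme) had a log2 fold change of 0.47 ± 0.44 (adjusted p = 0.611, edgeR) and Ugp2, which makes UDP-glucose, of 0.02 ± 0.20.

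Genes of the hypoxia-inducible factor (HIF) system were listed because HIF is a known regulator of glycolytic genes. Of 15 such genes, 12 were tested and edgeR called none, a count near the 3.42% and 1.85% of all tested genes. An unadjusted p under 0.05 (edgeR) was found for 3 of them, against 1924 of all 10054 genes. Their log2 fold changes were positive in 8 and negative in 4, with a median of 0.24, against 4822 positive, 5232 negative and a median of -0.03 over all tested genes. Hif1a was at 80.2, 118 and 119 CPM in the control pools and at 125 and 118 CPM in the exposed pools, with a log2 fold change of 0.20 ± 0.22 (adjusted p = 0.682, edgeR). Mxi1, a HIF target that is also prominent in maturing red cells, was at 149, 122 and 35.0 CPM in the control pools and at 19.8 and 26.8 CPM in the exposed pools, with a log2 fold change of -2.13 ± 0.62 (adjusted p = 0.152, edgeR). The 5 erythroid markers, of which Hbb-bs was the most abundant, summed to 351, 109 and 13.1 CPM in the control pools and to 15.6 and 6.77 CPM in the exposed pools. Their order was that of Mxi1 in the control pools and the reverse of it in the exposed pools. Bpgm had another order in control pools 1 to 3, at 81.2, 76.3 and 90.6 CPM. The other 2 genes with an unadjusted p under 0.05 were higher in both exposed pools than in all control pools and were not called by edgeR. P4ha1, a collagen prolyl hydroxylase gene, had a log2 fold change of 0.67 ± 0.20 (adjusted p = 0.148, edgeR) and Epas1, which encodes HIF-2α, of 1.34 ± 0.54 (adjusted p = 0.245, edgeR). Epas1 had 112, 129 and 111 counts in the control pools and 361 and 184 counts in the exposed pools. It met the count minimum in the exposed pools alone, so it was tested because it was high there. The counts given above for the HIF list include it. DESeq2 called P4ha1 upregulated and Mxi1 downregulated. The part of the erythroid markers in the values of Mxi1 and Bpgm was not tested.

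Markers of other cells were measured because the sort could have let some of them pass. The most abundant gene of each list is named over the 5 libraries together and need not lead in each of them. Lyz2 was the most abundant of the 7 myeloid markers. These summed to 132, 19.5 and 14.8 CPM in the control pools and to 134 and 54.6 CPM in the exposed pools. Fcer1g, 1 of the 3 that could be tested, was called upregulated, where 3.42% of all tested genes were. It was at 5.60, 2.19 and 1.62 CPM in the control and 18.3 and 20.6 CPM in the exposed pools. With 241, 107 and 74 counts in the control pools and 776 and 851 in the exposed pools, Fcer1g met the count minimum in the exposed pools alone. It was thus tested because it was high there. The 3 neutrophil markers summed to 3.37, 2.62 and 17.5 CPM in the control and to 26.3 and 15.5 CPM in the exposed pools, with Retnlg as the most abundant. The 6 sustentacular markers, with Cbr2 as the most abundant, summed to 81.7 to 332 CPM in the control pools and to 294 and 136 CPM in the exposed pools, and in control pools 1 and 2 Cyp2a5 was above Cbr2. Basal cell markers summed to at most 3.19 CPM, with Krt5 as the most abundant. Ensheathing glia markers summed to at most 4.72 CPM, and microvillar cell markers to at most 29.7 CPM in control pool 2, where their most abundant gene, Trpm5, was at 2.13 CPM, against 27.0 CPM in control pool 3. Of the 3 endothelial markers, Cdh5 and Kdr had no more than 3 counts in any library and Pecam1 reached 7.25 CPM. The 5 markers of immature OSNs, with Stmn2 as the most abundant, summed to 694 to 803 CPM in the control and to 1107 and 869 CPM in the exposed pools. Of these 5, 1 (Gap43) was called upregulated, against 3.42% of all tested genes. Gng8 and Dpysl3 were also higher in both exposed pools than in all control pools. Stmn2 overlapped between conditions, and Hdac2 was lower in both exposed pools (74.2 and 102 CPM, against 105 to 114 CPM). The part of these markers in the changes of Pfkp and Ldha was not tested.

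Genes with the most similar profile over the 5 libraries were finally sought among the 10046 other tested genes. The mean profile of the 8 tested members, as log2 CPM centred per gene, was -0.27, -0.09 and -0.18 in control pools 1 to 3, against 0.24 (pool 1) and 0.29 (pool 3) after exposure. The 3 nearest genes were Rrp1, Xpc and Rnf40, with root mean square differences of 0.0370, 0.0438 and 0.0444 on the log2 scale over 5 libraries. Rrp1, a factor of ribosomal RNA processing, was at 306, 364 and 349 CPM in the control pools and at 462 and 486 CPM in the exposed pools. Its exposed pools were above all control pools, which follows from its choice by nearness to the mean profile. None of the 3 was called, with adjusted p-values of 0.131 to 0.279 (edgeR).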

How the data were processed

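Polyadenylated RNA of sorted neurons was amplified with SMARTer chemistry, prepared with Nextera XT and read from one end over 50 bases. Reads were aligned by the authors with STAR 2.7.0a to GRCm38 supplemented with the IRES-tau-GFP sequence. They deposited raw counts per gene from featureCounts 1.6.3, per the file headers summed over exons regardless of strand, leaving out reads with several alignments or several genes. Without molecular identifiers, reads are not independent molecules, and limits cover counting error only.

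Of 55411 genes, 55144 were named through GENCODE M21. Differences were computed by edgeR 4.0.16 under R 4.3.3 with TMM factors, robust glmQLFit, glmQLFTest and Benjamini-Hochberg adjustment, in a model of the condition alone over the 5 libraries. A gene was tested if each library of a condition held 140 counts or more of it, a local minimum of the count density. The ERCC spike-ins (0.249% to 0.631% of counts) were left out of TPM. A floor of 3 counts corresponded to 0.0606 to 0.0701 CPM. The procedure was tested on simulated data. Figures were drawn with matplotlib 3.10.9.

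The named genes were the 10 members, the called genes of each list, the gene with the highest TPM and, in lists without a call, that with the largest log2 fold change, the paralogues, the reporter and Olfr151, and the 5 genes nearest in profile. Some genes that this rule or the lists select are not reported here. Tpi1, Gapdh, Pgam1, Dlat, G6pdx, Pcx, Cnga2, Rtp1, Stoml3, Fcer1g, Gap43, Gng8, Dpysl3, Hdac2, P4ha1 and Epas1 were named or plotted after their values were seen. Members and lists were chosen with earlier results of these data known. The labels give separate pools of mice without their days. Alternatives were DESeq2 1.42.0 with apeglm 1.24.0, other scalings, thresholds and filters, pool number as a block, and fits that omit 1 library at a time.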

Additional observations from a re-analysis of the deposited data

How the results depend on the processing

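Settings changed the counts of calls more than the direction of the members. The 2 members called upregulated fell to 0 with scaling on the ERCC spike-ins, an adjusted p under 0.05, glmTreat with the fold threshold, filterByExpr or the replicate block, and lay between 0 and 2 with each library left out. They stayed at 2 with DESeq2 and apeglm, DESeq2's size factors, library totals, no robust estimation, no filter beyond 1 count and a lower count minimum of 58, which was added after seeing the data. Over 16 alternatives, adjusted p ranged from 0.000190 to 1.00 for Ldha (called in 8) and from 0.00163 to 1.00 for Pfkp (called in 7), with the direction kept in each. Pfkl turned to a log2 fold change of -0.0154 on ERCC scaling, which moved the median of all genes to -0.23. Relative to that median it was 0.22, Ldha 1.23 and Pfkp 0.85. With a library left out, Tpi1 ranged from -0.168 to 0.0318, above 0 without control pool 1 or exposed pool 1, and Ldhb from -0.179 to 0.0825, above 0 without control pool 1 or exposed pool 3.

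The 5 calls in the 9 other lists became 7 (DESeq2 with apeglm), 4 (library totals, lower count minimum), 2 (ERCC scaling, adjusted p under 0.05, filterByExpr), 3 (glmTreat, no filter) or 0 (replicate block), and 0 to 5 with a library left out. Downregulated genes in these lists numbered 2 with DESeq2 and 0 to 2 with a library left out. The 344 upregulated and 186 downregulated genes overall became 94 and 49 (ERCC scaling), 190 and 90 (adjusted p under 0.05), 147 and 55 (glmTreat), 163 and 77 (filterByExpr), 11 and 0 (replicate block) and 671 and 715 (DESeq2). With a library left out they ranged from 93 to 348 and from 19 to 429. The causes were not tested. The 2 pool numbers that both conditions share are not stated to pair them, and the deviations of same-numbered pools correlated at -0.0113. Under the block, adjusted p was 0.215 for Ldha and 0.179 for Pfkp, and the paralogue differences kept their sign. Summed TPM of the members was 2972 in control and 3107 in exposed pools and became 3730 and 4443 as CPM, which is another unit. Paralogue differences kept their direction with each library left out. The length of the principal transcript, an alternative chosen after seeing the data, moved the mean share of Pfkp among phosphofructokinases from 25.1% to 44.9% in the control and from 44.0% to 63.8% in the exposed pools. With 2 exposed pools, the spread in that condition rests on 1 difference per gene.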
